A study of Homo sapiens with 12 samples.

Results

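The 36 genes described here mark the melanocyte lineage or its loss in melanoma, and they were taken by name from a table of 23705 genes counted in A375 cells. They comprised 5 transcription factors of pigment cells, 12 genes of melanin synthesis and of the melanosome, 3 receptors of melanocytes, 2 cadherins, 5 markers of neural crest and melanoma, and 9 dedifferentiation genes. All 36 were found in the table, and 26 of them had enough reads to be tested among 13522 tested genes. A375 is an established line from a human metastatic melanoma, so a single line stands for the tumour here, and all groups shared its genotype. Cells were grown in DMEM with 10% FBS and were exposed for 24 h to the DMSO vehicle, to rosiglitazone (RGZ) at 5 μM, to T0070907 at 2 μM, or to both compounds at these doses. RGZ activates the nuclear receptor PPARγ and T0070907 antagonizes it, so the combination asks which responses to RGZ the antagonist prevents. Each condition had 3 libraries, 1 from each of 3 independent experiments.

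Melanocytes arise from the neural crest, and the transcription factors SOX10, PAX3 and MITF drive the genes by which they make melanin inside melanosomes. Melanoma cells can leave this pigmented state: expression of MITF and of pigment enzymes then falls. Receptors such as AXL and NGFR and some factors of epithelial to mesenchymal transition then rise. GPNMB is a glycoprotein of melanosomes and lysosomes, and MITF activates many pigment genes through an extended E-box known as the M-box.

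Between 8319455 and 11375227 reads were counted per library. Levels are given as CPM, the count of a gene scaled to the size of its library, with adjustment of the libraries by edgeR's TMM method, and levels of different genes are compared only per kilobase (kb) of their longest transcript. Conditions were compared by edgeR's quasi-likelihood test on the 12 libraries together, with Benjamini-Hochberg adjustment over the tested genes, and a gene was called at an adjusted p under 0.05. Libraries of 1 experiment tended to lie on the same side of their condition means, so a second fit of each comparison added the experiment as a term, here named the replicate block. Without this term the differences between experiments count as spread. Both fits are given for each comparison. A count of 3 reads, taken as the floor of detection, corresponded to between 0.258 and 0.371 CPM.

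The M-box, the letters TCATGTG on either strand, was searched in the promoters of the members because it is the sequence through which MITF acts on pigment genes. RefSeq sequences of GRCh38.p14, from 250 bases before to 50 bases after 1 RefSeq start site per gene, were at hand for 26 of the 36 members. For several members, *GPNMB*, *TYRP1* and *GPR143* among them, this site lies inside the outer bounds that GENCODE gives the gene, and for *DCT* it lies outside them. The M-box occurred in 5 of these 26 windows (19.2%), namely those of *GPNMB*, *TYR*, *TYRP1*, *GPR143* and *ZEB2*. It occurred in 2.92% of 35116 promoter windows in the same table and in 1.89% of the 15706 windows of tested genes. The 26 members with a window are not the 26 tested members, and *TYR* and *DCT*, for example, were not tested. The members were chosen partly as pigment genes, so these shares are no test. The 4 windows of pigment genes are shown because they belong to 1 gene that was expressed in A375 cells and to 3 genes that gave few or no reads. They lie at chr7:23246525-23246824 on the plus strand for *GPNMB*, chr11:89177625-89177924 on the plus strand for *TYR*, chr9:12693135-12693434 on the plus strand for *TYRP1* and chrX:9765798-9766097 on the minus strand for *GPR143*. Each is written 5′ to 3′ on the strand of its gene, and capitals mark the M-box in either orientation.
GPNMB promoter: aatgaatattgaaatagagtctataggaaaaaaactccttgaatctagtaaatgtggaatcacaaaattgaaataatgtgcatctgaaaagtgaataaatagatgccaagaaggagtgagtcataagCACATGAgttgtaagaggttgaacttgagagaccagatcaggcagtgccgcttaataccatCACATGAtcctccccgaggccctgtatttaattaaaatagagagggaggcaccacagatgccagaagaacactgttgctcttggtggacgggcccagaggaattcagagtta
TYR promoter: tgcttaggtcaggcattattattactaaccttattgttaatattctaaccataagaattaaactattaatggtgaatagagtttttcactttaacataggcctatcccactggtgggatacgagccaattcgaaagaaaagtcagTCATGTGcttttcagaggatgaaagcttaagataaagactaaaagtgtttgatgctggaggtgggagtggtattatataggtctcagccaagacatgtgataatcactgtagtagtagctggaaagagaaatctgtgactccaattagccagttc
TYRP1 promoter: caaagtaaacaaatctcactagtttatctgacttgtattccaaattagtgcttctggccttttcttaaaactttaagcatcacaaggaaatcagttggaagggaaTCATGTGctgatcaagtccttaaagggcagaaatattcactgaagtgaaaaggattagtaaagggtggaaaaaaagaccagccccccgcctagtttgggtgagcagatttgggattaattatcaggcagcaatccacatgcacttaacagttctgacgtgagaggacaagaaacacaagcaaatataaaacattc
GPR143 promoter: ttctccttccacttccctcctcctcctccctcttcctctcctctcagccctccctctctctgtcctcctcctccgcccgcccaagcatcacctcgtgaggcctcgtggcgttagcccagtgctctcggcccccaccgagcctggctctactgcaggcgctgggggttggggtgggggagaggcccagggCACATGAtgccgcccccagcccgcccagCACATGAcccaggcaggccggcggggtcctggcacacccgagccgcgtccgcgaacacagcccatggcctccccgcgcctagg
*GPNMB* held the M-box at 2 places, from -123 to -117 and from -62 to -56 counted from that start site, and *GPR143* also held it at 2 places, from -61 to -55 and from -33 to -27. In *TYR* it lay from -105 to -99 and in *TYRP1* from -145 to -139. The shorter E-box CACGTG, whose letters do not overlap with a match to the M-box, was in 0 of the 26 member windows and in 7.26% of all windows. A direct repeat of the nuclear receptor half-site with 1 base between the copies, the form that PPARγ binds together with RXR, was in 0 of the 26 windows and in 0.0228% of all windows. These matches describe the letters of these windows only.

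In vehicle-treated cells, the lineage transcription factor *SOX10* and the receptor tyrosine kinase *AXL* were the most abundant members per kb, whereas most genes that make melanin gave almost no reads. *AXL* had a mean of 110 CPM per kb and *SOX10* of 108 CPM per kb, higher than 95.6% and 95.5% of the tested genes. The neurotrophin receptor *NGFR* followed with 58.0 CPM per kb and the intermediate filament gene *NES* with 54.0 CPM per kb. Neighbours in this order did not stand apart, because *NES* alone ranged from 139 to 431 CPM over the 3 vehicle libraries and *NGFR* from 94.5 to 277 CPM. *MITF*, the master regulator of pigment genes, was in the middle of the range at 9.54 CPM per kb. In each of the 12 libraries *AXL* exceeded *MITF* per kb, by 8.79 to 16.3 times.

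**Figure D1:**
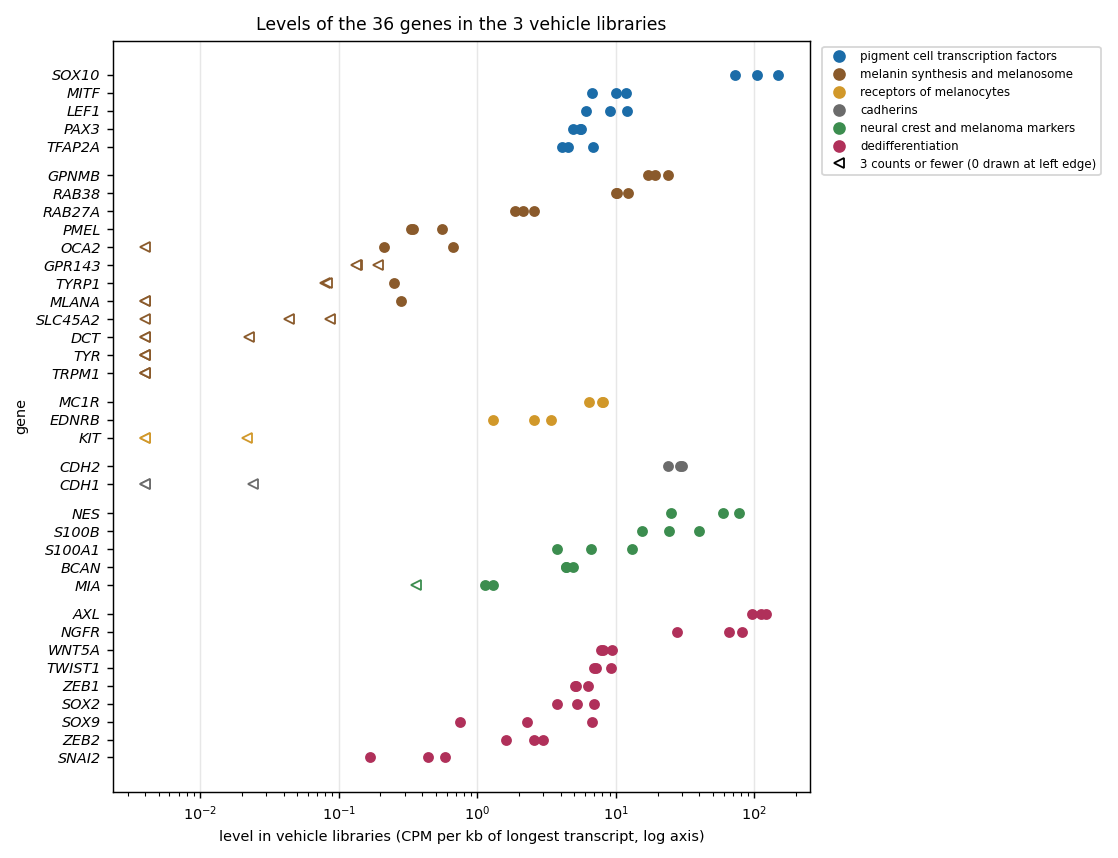
Level of each of the 36 genes in the 3 vehicle libraries, as CPM per kb of the longest transcript on a log axis, with genes grouped by role. Points are libraries, and open triangles are libraries with 3 counts or fewer (0 is drawn at the left edge). *AXL* and *SOX10* lie at about 110 and 108 CPM per kb, and *TYR*, *DCT* and *TRPM1* at or under 1 count.

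Of the 12 genes of melanin synthesis and the melanosome, 5 were tested. *TYR*, the rate-limiting enzyme of melanin synthesis, had 0 reads in all 12 libraries, which allows a level of up to the floor of 0.371 CPM in the library with the highest floor. *DCT*, another enzyme of the pathway, had 1 read in the first vehicle library and 0 in the other 11 libraries. *TRPM1*, a cation channel of melanocytes, had 1 read in 1 RGZ library. The enzyme gene *TYRP1* had between 0 and 13 reads, with the highest counts in the T0070907 library (13) and the combination library (11) of experiment 2. *MLANA*, which encodes the melanoma antigen Melan-A, had 6, 0 and 0 reads in the vehicle libraries and 1, 0 and 2 with RGZ. It had 2, 4 and 0 reads under T0070907 and 3, 3 and 0 under the combination. The transporter *SLC45A2* stayed at 7 reads or fewer and the melanosomal receptor *GPR143* at 10 or fewer in every library. *PMEL*, which forms the fibrils of the melanosome and whose exons overlap *CDK2* on the other strand, passed the filter with 3 to 13 reads per library. *OCA2*, a melanosomal transporter, ranged from 0 to 18 reads. The remaining 3 members of this group, *GPNMB* (20.0 CPM per kb), the small GTPase *RAB38* (10.8 CPM per kb) and *RAB27A*, which tethers melanosomes for transport and shares exon positions with *PIGBOS1* (2.19 CPM per kb), were above the floor in all 12 libraries.

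Outside that group, 3 of 24 members failed the filter. The receptor *KIT* and the epithelial cadherin *CDH1* had at most 2 reads and 1 read in any library, while the mesenchymal cadherin *CDH2* was at 27.6 CPM per kb in vehicle. *MIA*, a secreted protein of melanoma, had between 2 and 13 reads, and its exons overlap a read-through transcript with *RAB4B*. The other neural crest and melanoma markers were *S100B* at 26.4, *S100A1* at 7.82 and *BCAN*, a proteoglycan of neural tissue, at 4.54 CPM per kb. *MC1R* was at 7.47 and *EDNRB* at 2.42 CPM per kb, and among the transcription factors *LEF1* was at 9.11, *PAX3* at 5.36 and *TFAP2A* at 5.15 CPM per kb. All 9 dedifferentiation genes were tested. Below *AXL* and *NGFR* came the ligand *WNT5A* at 8.44 CPM per kb, the bHLH factor *TWIST1* at 7.83, *ZEB1* at 5.48, *SOX2* at 5.32, *SOX9* at 3.25 and *ZEB2* at 2.38 CPM per kb. *SNAI2*, a further repressor of epithelial genes, was at 0.398 CPM per kb, with 11, 4 and 14 reads in the vehicle libraries. The cultures thus held transcripts of both sets together, *SOX10* and *MITF* on one side and *AXL*, *NGFR* and the mesenchymal factors on the other. Exons of several members overlap annotated transcripts on the other strand, among them *AXL*, *NGFR*, *TFAP2A*, *LEF1*, *ZEB1*, *ZEB2*, *TWIST1*, *CDH2*, *EDNRB* and *BCAN*. Whether counting used strand is not given in the sources used here.

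The first comparison asked which members respond to activation of PPARγ by RGZ. The melanosome gene *GPNMB* fell by 0.78 on the log2 scale and was the 1 member of 26 called without the replicate block, against 1.24% of all tested genes (0.947% higher and 0.288% lower). As this is bulk RNA, fewer cells expressing a gene and less of its RNA per cell cannot be told apart. With the replicate block, 12 of 26 members were called, against 9.3% of all tested genes: 11 were lower with RGZ, among 4.35% of all genes called lower, and *SOX2* was higher, among 4.95% called higher. The lower genes came from every role: 3 transcription factors (*TFAP2A*, *MITF*, *LEF1*), 1 melanosome gene (*GPNMB*), 1 receptor (*MC1R*), *CDH2*, the neural crest marker *S100B* and 4 dedifferentiation genes (*NGFR*, *WNT5A*, *TWIST1*, *AXL*). The median log2 difference with the block was -0.22 over the 26 tested members and -0.01 over all tested genes. The 11 called by the block alone had adjusted p-values between 0.177 and 0.777 in edgeR's quasi-likelihood test without it.

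**Figure D2:**
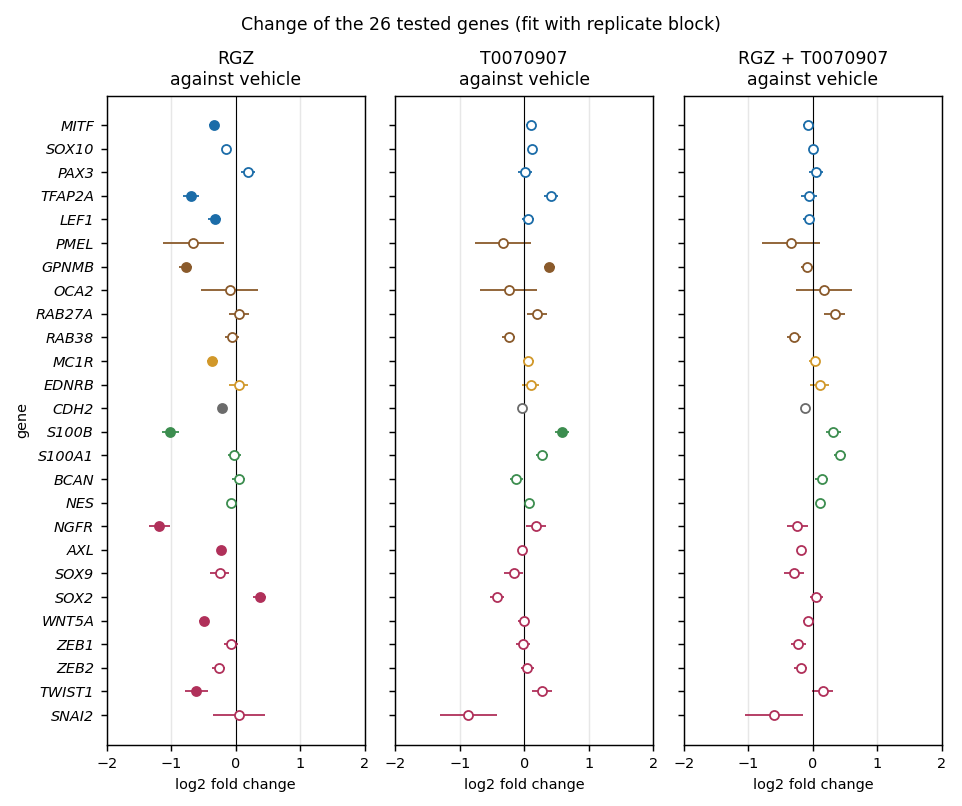
Log2 fold change of each tested member in the fit with the replicate block, in panels by comparison. Points are estimates, horizontal bars are their standard errors, and filled points have an adjusted p under 0.05, and colours mark the roles of the genes. With RGZ, 11 members are filled on the lower side and *SOX2* on the higher side, and with the combination against vehicle no point is filled.

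*GPNMB* lies at chr7:23235967-23275108 on the plus strand (GRCh38, GENCODE 29). Its level was 49.1, 68.1 and 55.0 CPM in the vehicle libraries of experiments 1, 2 and 3, and 31.9, 37.2 and 31.0 CPM with RGZ. All 3 RGZ libraries lay under all 3 vehicle libraries. The reduction was 1.71-fold in the fit with the replicate block (log2 -0.78, SE 0.10, adjusted p = 2.98e-05 by edgeR's quasi-likelihood test) and was called without the block as well (SE 0.15, adjusted p = 0.0268). The call without the block was lost when vehicle replicate 2 or 3 or any of the 3 RGZ libraries was left out. Its adjusted p then reached up to 0.115, and a model of only the groups compared did not make the call either. With the block, the call held without each of the 12 libraries in turn.

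**Figure D3:**
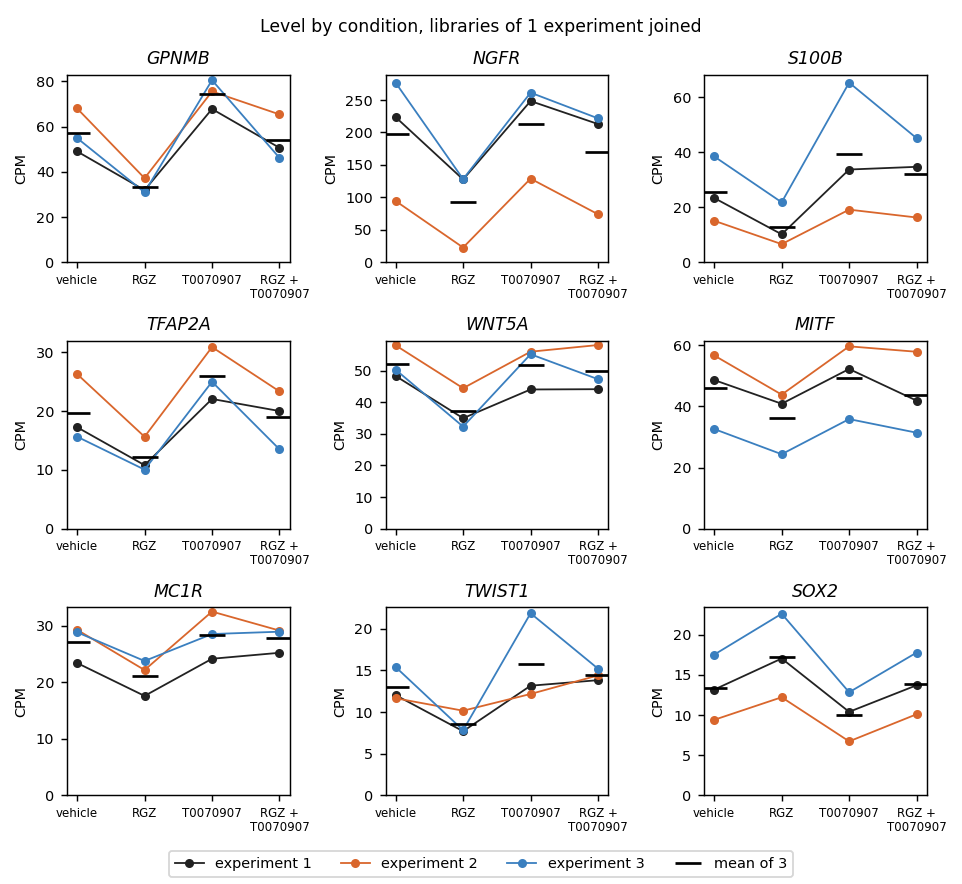
CPM of *GPNMB*, *NGFR*, *S100B*, *TFAP2A*, *WNT5A*, *MITF*, *MC1R*, *TWIST1* and *SOX2*, each called in at least 1 comparison, by condition. Lines join the libraries of 1 experiment and horizontal bars are the mean of 3 libraries. The called members *CDH2*, *LEF1*, *AXL*, *NES* and *S100A1* are not drawn. *GPNMB* is at 31.0 to 37.2 CPM with RGZ and at 49.1 to 68.1 CPM with vehicle, and for *NGFR* and *S100B* the experiments are spread widely while each line drops at RGZ.

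*NGFR*, the low-affinity neurotrophin receptor of neural crest cells, is at chr17:49495293-49515017 on the plus strand. It was at 224, 94.5 and 277 CPM with vehicle and at 128, 22.8 and 128 CPM with RGZ. The groups overlapped because experiment 2 was low in both, but within each experiment the RGZ level was 0.242 to 0.571 of the vehicle level. The reduction was 2.27-fold with the block (log2 -1.18, SE 0.17, adjusted p = 1.01e-04), the largest among the called members, and without the block its SE was 0.59 and its adjusted p 0.569. *S100B*, a calcium-binding protein used as a melanoma marker (chr21:46598962-46605208, minus strand), was at 23.4, 15.1 and 38.5 CPM with vehicle and 10.2, 6.62 and 21.8 CPM with RGZ. Its RGZ level was 0.436 to 0.567 of vehicle within experiments, a 2.02-fold reduction with the block (SE 0.13 on the log2 scale, adjusted p = 3.73e-05).

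The transcription factor AP-2α gene *TFAP2A*, which acts in neural crest and melanocytes, was at 17.3, 26.3 and 15.7 CPM with vehicle and 10.8, 15.6 and 10.0 CPM with RGZ. The highest RGZ library (15.64 CPM, 137 reads) lay barely under the lowest vehicle library (15.65 CPM, 133 reads). The reduction was 1.62-fold with the block (adjusted p = 0.00143). *WNT5A*, a ligand of non-canonical Wnt signalling, was at 48.3, 57.9 and 50.2 CPM with vehicle and 34.9, 44.4 and 32.3 CPM with RGZ. These groups were separate too, with a 1.41-fold reduction (block adjusted p = 7.13e-04). *TWIST1* was at 12.04, 11.7 and 15.4 CPM and, with RGZ, at 7.69, 10.2 and 7.82 CPM, which was 1.53-fold lower (block adjusted p = 0.0351). The RGZ and vehicle libraries did not overlap for 6 of 26 members (23.1%), namely *GPNMB*, *TFAP2A*, *WNT5A*, *TWIST1*, *PAX3* and *PMEL*, compared with 16.8% of all tested genes. For *PAX3*, a transcription factor upstream of *MITF*, the separation was upward, from 15.5 to 17.9 CPM with vehicle to 18.2 to 20.4 CPM with RGZ, and it was not called in either fit (block adjusted p = 0.305). *PMEL* had 8, 8 and 13 reads with vehicle and 8, 7 and 5 with RGZ and was not called either.

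The remaining called members changed by less. *MITF* was at 48.6, 56.6 and 32.6 CPM with vehicle and at 40.9, 43.8 and 24.4 CPM with RGZ. The groups overlapped, but *MITF* was 0.747 to 0.841 of vehicle within the experiments (block log2 -0.34, SE 0.08, adjusted p = 0.00997). *MC1R*, the melanocortin receptor, was at 23.4, 29.3 and 28.8 CPM and, with RGZ, at 17.6, 22.1 and 23.8 CPM (1.28-fold lower, block adjusted p = 0.0126). Its exons overlap those of *TCF25* on the same strand, so their reads may be shared. *LEF1*, a Wnt effector, was at 31.8, 21.2 and 42.0 CPM and, with RGZ, at 23.0, 20.6 and 31.8 CPM (1.25-fold lower, block adjusted p = 0.0458). *CDH2* was at 129, 103 and 126 CPM and, with RGZ, at 113, 85.6 and 111 CPM (1.16-fold lower, block adjusted p = 0.0284). *AXL* was at 578, 526 and 453 CPM and, with RGZ, at 519, 427 and 389.6 CPM (1.17-fold lower, block adjusted p = 0.0434). Each of these 5 genes was lower in 3 of 3 experiments, by ratios that were closer to 1 than those of *NGFR*.

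*SOX2*, a factor of stem and neural crest cells, was the exception in direction. It was at 13.2, 9.40 and 17.5 CPM with vehicle and at 17.0, 12.2 and 22.6 CPM with RGZ, 1.29 to 1.30 times the vehicle level in each experiment (block log2 0.37, SE 0.10, adjusted p = 0.0202). In the fit with the block, the calls of *NGFR*, *S100B*, *TFAP2A* and *WNT5A* also held without each library in turn, while *MITF* lost its call without RGZ replicate 2 or 3 and *MC1R* without vehicle replicate 3 or RGZ replicate 1 or 2. The calls of *TWIST1*, *CDH2*, *SOX2*, *LEF1* and *AXL* were lost without 5, 6, 6, 7 and 9 of the 12 libraries. DESeq2 with the same block did not call *SOX2* (adjusted p = 0.151), *LEF1* (0.123), *CDH2* (0.0647), *MC1R* (0.0516) or *AXL* (0.05005).

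Pigment genes and dedifferentiation genes are set side by side here for RGZ. The 5 pigment cell transcription factors had a median log2 difference of -0.32 with the block, and 3 of them were called lower. The 5 tested genes of melanin synthesis and the melanosome had a median of -0.09, and 1 of them was called lower. That median is the value of *OCA2*, which had 6, 0 and 18 reads with vehicle and 8, 3 and 14 with RGZ. The 9 dedifferentiation genes had a median of -0.25, with 4 called lower and 1 called higher. This median is the value of *SOX9*, whose RGZ level was 0.690 to 1.07 of the vehicle level within experiments. Over all tested genes the median was -0.01, with 4.35% called lower and 4.95% called higher. *SOX10*, whose exons overlap *POLR2F* on the other strand, was at 299.9, 208 and 425 CPM with vehicle and at 293, 178 and 375 CPM with RGZ, and was not called (block log2 -0.14, SE 0.06, adjusted p = 0.167). *ZEB1* was at 39.4, 32.1 and 31.5 CPM with vehicle and at 37.0, 29.7 and 30.9 CPM with RGZ, and *SOX9* at 8.97, 26.4 and 2.94 CPM and at 9.56, 20.0 and 2.03 CPM. Neither was called, with block adjusted p-values of 0.736 and 0.353.

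T0070907 given alone asked what the antagonist does without added agonist. Without the block, 0 of 26 members were called by edgeR's quasi-likelihood test, against 0.0074% of all tested genes, and 1 of 26 members had an unadjusted p under 0.05, beside 419 of 13522 tested genes. With the block, *S100B* and *GPNMB* were called, both higher, against 0.91% of all tested genes (0.237% higher and 0.673% lower). *S100B* was at 33.7, 19.2 and 65.3 CPM with T0070907, 1.27 to 1.70 times the vehicle level of the same experiment (log2 0.59, SE 0.11, adjusted p = 0.0119). *GPNMB* was at 67.8, 75.6 and 80.6 CPM, 1.11 to 1.47 times vehicle (log2 0.39, SE 0.09, adjusted p = 0.0448), and limma-voom with the same block did not call it (adjusted p = 0.0651). The T0070907 and vehicle libraries overlapped for both genes, and the number of members without overlap was 0 of 26, against 7.67% of all tested genes. The *S100B* call was lost without vehicle replicate 1 or 3 or T0070907 replicate 3, and the *GPNMB* call without any of 8 of the 12 libraries, all but the combination libraries and T0070907 replicate 2.

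The other 24 tested members were not called with T0070907. *TFAP2A* was at 22.1, 30.9 and 25.0 CPM (block log2 0.42, adjusted p = 0.114), and *SOX2* at 10.4, 6.71 and 12.8 CPM (block log2 -0.43, adjusted p = 0.0706). *MITF* was at 52.2, 59.6 and 35.8 CPM, *SOX10* at 327, 246 and 429 CPM, *NGFR* at 248, 129 and 261 CPM and *AXL* at 584, 557 and 391 CPM, and none of them was called. *WNT5A* was at 44.0, 55.9 and 55.1 CPM, with a block log2 difference of -0.01 (adjusted p = 0.994). *MC1R* was at 24.1, 32.5 and 28.5 CPM, *LEF1* at 31.5, 20.9 and 47.0 CPM and *CDH2* at 122.8, 103 and 124 CPM. The levels of these 3 genes overlapped those of the vehicle libraries. *TWIST1* was at 13.2, 12.2 and 21.9 CPM, *ZEB1* at 35.1, 33.5 and 32.8 CPM and *SOX9* at 8.32, 24.3 and 1.90 CPM. *PMEL* had 12, 13 and 3 reads. *NES* was at 348, 149 and 441 CPM and *S100A1* at 20.9, 11.3 and 42.7 CPM, beside 17.5, 9.88 and 34.1 CPM in vehicle. For *SOX9*, *NES* and *S100A1* the experiments differed far more than the compound and vehicle did within an experiment.

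The combination was then compared with RGZ alone, with the same RGZ libraries that entered the comparison with vehicle. Levels of *S100B*, *NGFR*, *GPNMB*, *TFAP2A* and *WNT5A* were higher with the combination in 3 of 3 experiments. Without the block, *GPNMB* was again the 1 member called (log2 0.70, SE 0.15, adjusted p = 0.0453), against 1.24% of all tested genes (0.311% higher and 0.924% lower). That call held without vehicle replicate 1, vehicle replicate 2 or combination replicate 3. It was lost without each of the other 9 libraries, with an adjusted p of up to 0.175. Neither limma-voom without the block nor a model of only the groups compared made this call. With the block, 11 of 26 members were called, against 11.4% of all tested genes. Of these, 10 were higher with the combination and 1 was lower, against 5.55% and 5.88% of all tested genes. *S100B* rose 2.53-fold, to 34.7, 16.3 and 45.1 CPM (block adjusted p = 1.61e-06). *NGFR* rose 1.92-fold, to 213, 74.0 and 222 CPM (block adjusted p = 9.61e-04). For both genes, experiment 2 remained the lowest of the 3. *GPNMB* rose 1.62-fold with the block, to 50.6, 65.4 and 46.2 CPM, all above the RGZ libraries. *TFAP2A* rose 1.55-fold, to 20.0, 23.3 and 13.5 CPM, and *WNT5A* 1.34-fold, to 44.1, 58.1 and 47.3 CPM.

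*TWIST1* reached 13.8, 14.4 and 15.2 CPM and *MC1R* 25.2, 29.1 and 28.9 CPM, both in full separation from RGZ, and with *GPNMB* they were the 3 of 26 members (11.5%) whose combination and RGZ libraries did not overlap, against 17.7% of all tested genes. *MITF* reached 41.9, 57.8 and 31.4 CPM (block log2 0.27, SE 0.08, adjusted p = 0.0377), a call that was lost without 7 of the 12 libraries. *SOX2* was lower than with RGZ, at 13.7, 10.1 and 17.8 CPM (block log2 -0.32, adjusted p = 0.0409). DESeq2 with the block called neither *MITF* (adjusted p = 0.0967) nor *SOX2* (0.229) in this comparison. *NES* was also called, at 374, 148 and 452 CPM with the combination and 321, 129 and 414 CPM with RGZ (block log2 0.18, SE 0.05, adjusted p = 0.0274). *S100A1*, a calcium-binding protein whose exons overlap *S100A13* on the other strand, was at 24.3, 10.5 and 49.1 CPM with the combination and 15.9, 9.59 and 35.5 CPM with RGZ (block log2 0.44, adjusted p = 0.00498). In fits without the block the direction turned for *NES* without RGZ replicate 2 (log2 -0.18) or combination replicate 3 (-0.15), and for *S100A1* without combination replicate 3 (-0.24). The calls of *GPNMB*, *NGFR*, *S100B*, *TFAP2A*, *WNT5A* and *MC1R* against RGZ held without each of the 12 libraries in turn with the block. Those of *SOX2*, *NES* and *S100A1* were lost without 8, 5 and 2 of the libraries, and that of *TWIST1* without RGZ replicate 3.

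Against vehicle, the combination gave 0 called members of 26 in either fit of edgeR's quasi-likelihood test, as it gave 0% of all tested genes. With the block, leaving out 1 library at a time gave 0 to 4 called members. An unadjusted p under 0.05 was found for 7 of 26 members with the block, beside 2868 of 13522 tested genes, and for 0 members without it, beside 1438 tested genes. DESeq2 and limma-voom called 0 members with and without the block, while DESeq2 with the block called 161 of all tested genes. *RAB38* was the 1 member of 26 whose combination libraries, at 12.1 to 13.7 CPM, did not overlap the vehicle libraries, at 14.8 to 18.0 CPM, against 12.2% of all tested genes, and it was not called (block adjusted p = 0.139). The comparisons of RGZ and of the combination share their vehicle libraries, so their values are set side by side only. The log2 difference from vehicle with the block was -0.78 with RGZ and -0.08 with the combination for *GPNMB*, -0.69 and -0.06 for *TFAP2A*, and -0.49 and -0.07 for *WNT5A*. It was -1.18 and -0.24 for *NGFR* and -0.34 and -0.07 for *MITF*. *S100B* passed from -1.02 to 0.32 and *TWIST1* from -0.61 to 0.15, whereas *AXL* stayed at -0.22 and -0.19. *AXL* with the combination was at 486, 500.3 and 383 CPM and was not called against RGZ (block log2 0.04, SE 0.07, adjusted p = 0.787), and *CDH2* at 110.1, 97.8 and 119.9 CPM was not called either (block adjusted p = 0.376). *LEF1* was at 31.1, 20.5 and 39.4 CPM with the combination, *SOX10* at 309, 212 and 400.5 CPM, *ZEB1* at 25.2, 34.6 and 27.8 CPM and *SOX9* at 7.66, 23.0 and 1.18 CPM. *PMEL* had 7, 11 and 6 reads. None of these 5 genes was called in a comparison of the combination with vehicle, RGZ or T0070907.

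Against T0070907 alone, the combination gave 0 called members without the block (0.037% of all tested genes) and 3 with it (8.76%; 4.55% higher and 4.22% lower). *GPNMB* and *TFAP2A* were lower with the combination, each by a log2 difference of -0.48 with the block (adjusted p = 0.00554 and 0.0192), and *SOX2* was higher by 0.48 (adjusted p = 0.0125). The *GPNMB* call was lost without combination replicate 3, the *SOX2* call without T0070907 replicate 2 or combination replicate 3, and the *TFAP2A* call without T0070907 replicate 2 or 3 or combination replicate 3. The interaction of RGZ and T0070907, which asks whether the effect of RGZ differs when the antagonist is present, was called for 0 of 26 members in either fit, against 0% of all tested genes without the block and 0.281% with it. Its largest value by p was *S100B* (log2 0.75, SE 0.17, block adjusted p = 0.0811), which DESeq2 with the block called as its 1 member, followed by *WNT5A* (0.43, SE 0.12, block adjusted p = 0.164). For the interaction, an unadjusted p under 0.05 was found for 6 of 26 members with the block, beside 1324 of 13522 tested genes, and for 0 members without it, beside 406 tested genes.

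Differences between the 3 experiments were larger than those between conditions for most of the tested members. In the fit with condition as a further term, 21 of 26 members differed between experiments by edgeR's quasi-likelihood test, against 30.5% of all tested genes. The experiment held a median of 61.5% of the variance of log2 CPM over the tested members and 27.7% over all tested genes, and the condition a median of 26.9% and 34.3%. The experiment held more of the variance than the condition for 19 of 26 members and for 5928 of 13522 tested genes. *NES* was the extreme, with 98.9% of its variance between experiments, at 329.97, 139 and 431 CPM in the vehicle libraries of experiments 1, 2 and 3. *SOX9*, a factor of neural crest and of dedifferentiated melanoma, had 96.6% and ran the opposite way, at 8.97, 26.4 and 2.94 CPM in vehicle. For *GPNMB*, 86.7% of the variance lay between conditions and 8.62% between experiments.

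Many members shared their order over the experiments. *SOX10*, *NGFR*, *NES*, *S100A1*, *S100B*, *EDNRB*, *LEF1*, *SOX2*, *OCA2* and *ZEB2*, which are 10 of 26 members (38.5%), were highest in experiment 3 and lowest in experiment 2 in all 4 conditions, an order found in 3.33% of all tested genes. The endothelin receptor *EDNRB*, for example, was at 11.5, 5.83 and 15.2 CPM in vehicle and 9.36, 7.88 and 16.2 CPM with RGZ. The reverse order held for *MITF* and *SOX9*, 2 of 26 members (7.69%) against 3.76% of all tested genes. Per kb, *SOX10* exceeded *SOX9* between 10.7 times, in experiment 2 with vehicle, and 464 times, in experiment 3 with the combination. The labels give no cause for the differences between experiments, and what these experiments differed in was not tested.

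**Figure D4:**
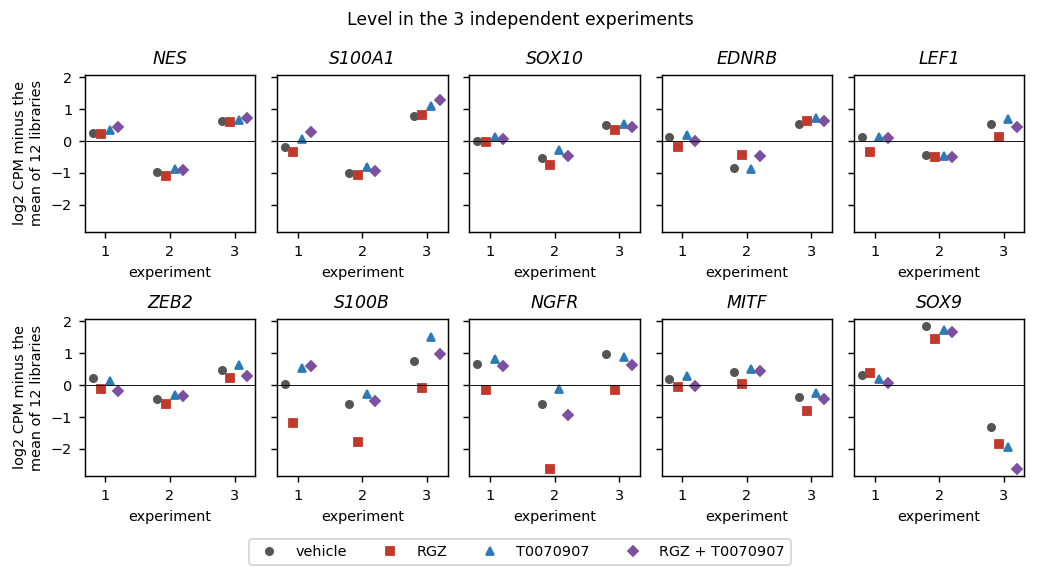
Level of 10 members in the 3 experiments, as log2 CPM minus the gene's mean over the 12 libraries, with 1 symbol per condition. *NES*, *S100A1*, *SOX10* and *EDNRB* are lowest in experiment 2 in all 4 conditions, *SOX9* is highest there, and the RGZ symbols of *S100B* and *NGFR* lie under the other 3 conditions within each experiment.

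Other genes of the same pathways gave the following with RGZ and the block. Of 22 further pigment cell genes, 17 were tested, 4 were lower and 1 was higher, beside 4.35% and 4.95% of all tested genes. The lower ones were *FABP7*, a fatty acid binding protein (log2 -1.32), the transcription factor *SOX6* (-1.29), the receptor *ERBB3* (-0.55) and the melanosome motor *MYO5A* (-0.27), and *MLPH*, the linker between RAB27A and that motor, was higher (0.31). Of 26 further dedifferentiation and invasion genes, 24 were tested, 9 were lower and 4 were higher, beside the same shares of all tested genes. The lower ones included the neural crest factor *FOXD3* (-1.60), the nuclear receptor *RXRG* (-1.23) and fibronectin *FN1* (-0.88), and the higher ones were the AP-1 subunits *JUN* (1.00) and *FOSL1* (0.45), the integrin *ITGA6* (0.60) and *NT5E* (0.34). The medians with the block were -0.15 for the first list and -0.25 for the second, beside -0.01 for all tested genes. Without the block, *FOSL1* alone was called among both lists (adjusted p = 0.0427).

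Of 14 markers of keratinocytes, fibroblasts, leukocytes and endothelium, 3 had 3 reads or fewer in every library and *KRT1* had 0. Their summed level was 111 to 140 CPM with vehicle, 108 to 126 CPM with RGZ, 122 to 142 CPM with T0070907 and 128 to 143 CPM with the combination, of which *KRT10* made 69.2 to 91.4 CPM. Within this list, *KRT14* (log2 -0.94) and *COL1A1* (-0.76) were called lower with RGZ in the fit with the block. The median of the 8 tested markers was -0.82, beside -0.22 for the tested members, with 5 estimates lower and 3 higher. Mean levels with vehicle and RGZ were 76.5 and 80.9 CPM for *KRT10*, 7.98 and 10.7 CPM for *LYZ* and 4.83 and 4.91 CPM for *LUM*. *KRT5*, *DCN* and *CDH5* had at most 31, 27 and 21 reads in any library. Against RGZ, the combination gave these 8 markers a median of 0.22, beside 0.22 for the tested members, and *KRT14* was higher (log2 1.10). The part of these markers in the values of the members was not tested.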

How the data were processed

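The authors made libraries from A375 RNA by the TruSeq RNA protocol for a HiSeq 2000 sequencer, with RNA of technical replicates pooled within an experiment. The deposited values are raw counts per gene for 23705 genes, by NCBI gene number and without normalization. The submitters' processing notes name hg19, and the aligner, the counter, the annotation and the use of strand are not given in the sources used here. Columns of other samples numbered 0. Libraries were assigned to condition and experiment from the labels.

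The edgeR 4.0.16 package in R 4.3.3 was used (TMM, filterByExpr, quasi-likelihood test of contrasts in a model of all 12 libraries). Standard errors are approximate, being the absolute log2 change over the square root of F. The experiment number pairs the libraries: 17 of 18 pairs of the same experiment had a correlation of deviations over 0.1, with a mean of 0.554 and a lowest value of 0.0793. The common dispersion was 0.0193 without the replicate block and 0.00333 with it.

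The members and all lists were chosen with earlier results of these data known. Named with values in every library were members called in any comparison of conditions, and *MITF*, *SOX10*, *PMEL*, *MLANA*, *TYR*, *DCT*, *AXL*, *NGFR*, *SOX9*, *ZEB1* and *WNT5A*; the other members are given by level, range or count. Exon overlaps and gene positions are from GENCODE 29 on GRCh38, which is not the build named for the counts. Alternatives were the replicate block, other normalization and filters, DESeq2 1.42.0, limma-voom (limma 3.58.1), only the groups compared, and 12 fits that each omitted 1 library. The edgeR steps were also tested on simulated data.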

Additional observations from a re-analysis of the deposited data

How the results depend on the processing

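For RGZ against vehicle and for the combination against RGZ, the replicate block moved the number of called members most. With the block, RGZ against vehicle gave 12 members in place of 1 and T0070907 against vehicle 2 in place of 0. The combination against RGZ gave 11 in place of 1 and the combination against T0070907 3 in place of 0. The combination against vehicle and the interaction gave 0 with and without the block. DESeq2 with the replicate block gave 7, 2, 9 and 3 members in those first 4 comparisons (900, 112, 1071 and 879 of 13522 tested genes) and 1 member, *S100B*, for the interaction, and limma-voom with the replicate block gave 12, 1 (*S100B*), 11 and 3 (1220, 109, 1466 and 1009 tested genes). These 2 settings were chosen after seeing the data. limma-voom without the block gave 0 members for the combination against RGZ, where the adjusted p of *GPNMB* was 0.0552. A model of only the groups compared gave 0 members for RGZ against vehicle and 0 for the combination against RGZ, with fewer libraries to estimate the spread.

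With 1 library left out at a time, RGZ against vehicle and the combination against RGZ each gave 0 to 1 members without the block, and the other comparisons of conditions gave 0. With the block, the same omissions gave 6 to 12 members for RGZ against vehicle, 7 to 11 for the combination against RGZ (8 without RGZ replicate 1), 0 to 4 for T0070907 and for the combination against vehicle, 0 to 7 for the combination against T0070907 (5 without combination replicate 1) and 0 to 1 for the interaction. Differences between experiments gave 20 to 24. Without the block, direction turned for *NES* in the combination against RGZ. It was -0.18 without RGZ replicate 2, -0.15 without combination replicate 3 and at most 0.53, without RGZ replicate 3. Direction turned for *S100A1* too, at -0.24 without combination replicate 3 (highest value 1.13, without RGZ replicate 3). Within the experiments, both genes were higher with the combination than with RGZ in 3 of 3. The experiment held 98.9% of the variance of *NES* and 94.6% of that of *S100A1*, and its part in these turns was not tested. The 10 members under the filter had too few reads to be tested, and *PMEL*, *OCA2* and *SNAI2* had at most 20 reads in any library.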
